A study of Mus musculus with 15 samples.

Results

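The 8 genes described here encode core proteins of the caspase cascade and its upstream death receptors. They are the initiator caspases Casp8 and Casp9, the effector caspase Casp6, the apoptosome scaffold Apaf1, the inhibitors Xiap and Cflar, and the death receptors Fas and Tnfrsf10b. They were chosen by symbol, and all 8 were found among the 40402 genes of the count table. All 8 were also among the 17647 genes that reached 1 CPM (counts per 1000000 counts) before normalization in any library. These genes were used for every comparison below, with gene levels as CPM after normalization.

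Expression was measured by bulk RNA-seq in 4T1 cells, a mouse mammary carcinoma line used as a model of triple-negative breast cancer. Cells were left untreated or received blackberry extract (BLA), blueberry extract (BLU), gold nanoparticles made with blackberry (BLA-A) or gold nanoparticles made with blueberry (BLU-A). All cells were labelled WT, were grown in RPMI1640 with 10% fetal bovine serum, and were treated from 24 hours after seeding. The time of RNA harvest was not given in the sources used here. The labels list 3 numbered samples per condition, each with its own batch date, and the study's methods call replicates independent in general. Its sequencing report, however, lists their read files as subset reads. It does not state that they come from a single sequenced library, which is inferred here. Within a condition, the 3 columns varied less than separate draws of reads would, so they were averaged and counted as 1 library. Every difference between 2 conditions therefore has no replicate check, and the 95% intervals given with it cover counting error only. With 1 library per condition, the treatment and whatever else set that library apart cannot be told apart.

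Apoptosis reaches the caspases by a pair of routes. In the extrinsic route a ligand such as Fasl or Tnfsf10 binds its receptor, Fas or Tnfrsf10b, and the adaptor Fadd brings Casp8 to the receptor, where Cflar can take its place and hold activation back. In the intrinsic route cytochrome c released from mitochondria assembles Apaf1 into the apoptosome, which activates Casp9, and Xiap binds and blocks Casp9. Caspases are made as inactive precursors and switched on by cleavage or assembly, so an mRNA level is not a measure of caspase activity.

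Promoter windows of 300 bases, from 250 bases before to 50 bases after the RefSeq start (GRCm38.p6 table), were present for 7 of the 8 genes. All 9 windows of these genes matched the GRCm39 genome at exactly 1 place. The windows of Fas and Casp9 are shown because they belong to the genes with a window whose levels differed most between libraries. Both lie on the plus strand. They are at chr19:34267809-34268108 for Fas and at chr4:141520673-141520972 for Casp9 (GRCm39). Capitals mark, on either strand, the GC box GGGCGG, the xenobiotic response element core GCGTG and the AP-1 site TGANTCA.

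Fas: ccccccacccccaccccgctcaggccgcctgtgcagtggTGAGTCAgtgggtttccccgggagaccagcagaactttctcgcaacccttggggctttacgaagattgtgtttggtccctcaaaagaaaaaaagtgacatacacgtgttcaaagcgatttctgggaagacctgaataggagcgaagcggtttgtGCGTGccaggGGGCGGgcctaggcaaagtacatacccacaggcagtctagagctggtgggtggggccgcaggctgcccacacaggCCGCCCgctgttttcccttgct
Casp9: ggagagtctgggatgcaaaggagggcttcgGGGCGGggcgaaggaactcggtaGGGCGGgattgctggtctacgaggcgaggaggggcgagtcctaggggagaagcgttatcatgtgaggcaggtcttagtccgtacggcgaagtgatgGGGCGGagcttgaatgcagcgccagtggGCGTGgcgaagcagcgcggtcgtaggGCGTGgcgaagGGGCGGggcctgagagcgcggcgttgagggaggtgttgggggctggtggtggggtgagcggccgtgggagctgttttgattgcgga

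The Casp9 window held 4 GC boxes and 2 xenobiotic response element cores and no AP-1 site, with a GC content of 66%. The Fas window held 2 GC boxes, 1 xenobiotic response element core and 1 AP-1 site, with a GC content of 59%. The median GC content of all windows was 53%. None of the marked matches overlapped another in either window. Of 32544 promoter windows, 35.9% held a GC box, 32.6% held GCGTG and 7.79% held an AP-1 site, so only the last of these is found in few promoters. Neither window held TATAAA (13.6% of all windows), CCAAT (37.4%), the antioxidant response element core TGACNNNGC (12.4%) or the CRE core TGACG (20.9%), each searched on both strands. Among the other genes, the Casp6 window held 3 GC boxes, the Apaf1 window held 3 GC boxes and 2 GCGTG cores, the Casp8 window held 1 CCAAT box and the Cflar window held 2 TATAAA matches and 1 GCGTG core. Xiap had 3 windows, the first with 2 GC boxes and 1 CRE core, the second with 2 GC boxes and 1 antioxidant response element core, and the third with 1 TATAAA match and no GC box. Such matches are letters in a window and not measured binding sites.

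The total counts per library ran from 25613778 to 26956442, at which 3 counts correspond to 0.111 to 0.117 CPM, and every count of the 8 genes was at least 194. The labelled epithelial identity was checked on 8 markers, whose summed level was 1304 CPM in untreated cells, 964 in BLA and 1006 in BLU, and 1825 in BLA-A and 1150 in BLU-A. Krt8, Krt18, Krt7, Cdh1 and Epcam were present in every library and Krt14 stayed under 1 CPM. The 5 leukocyte markers summed to 0.820 to 3.83 CPM and the 3 endothelial markers to 1.77 to 4.06 CPM. The 4 fibroblast markers summed to 87.2 to 104 CPM, nearly all from Pdgfra at 86.0 to 102 CPM, while Col1a1, Col1a2 and Dcn were at 1.80 CPM or lower. The epithelial sum was highest in BLA-A, where Cldn4 was at 119 CPM against 17.0 in untreated cells, while Epcam was at 39.7 CPM against 68.9. The part of such shifts in the values below was not tested.

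The receptor genes showed the widest spread together with Casp9. Fas, which encodes the receptor for Fas ligand, had 194 counts in untreated cells, 334 in BLA and 304 in BLU, and 195 in BLA-A and 212 in BLU-A. After TMM normalization its level was 7.28 CPM in untreated cells, 12.3 in BLA and 11.0 in BLU, and 8.41 in BLA-A and 8.0 in BLU-A. Both extract libraries were above the other 3, and the step from BLA-A to BLU in this order was the only one whose counting interval left out 0. Against untreated cells the log2 fold change, on CPM plus 0.5, was 0.71 in BLA (95% counting interval 0.47 to 0.97) and 0.57 in BLU (0.32 to 0.82). It was 0.20 in BLA-A (-0.08 to 0.48) and 0.13 in BLU-A (-0.14 to 0.40), so Fas in the nanoparticle libraries was not distinguishable from untreated cells at this depth. Fas was the gene of lowest count among the 8 and had the widest intervals. In bulk RNA, fewer cells that express a gene and less of its RNA per cell cannot be told apart. Fas lies at chr19:34268001-34305173 on the plus strand (GENCODE M39, GRCm39) and shares 21368 bases with a long noncoding RNA gene on the opposite strand, Gm59283, which was not analysed here.

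Tnfrsf10b, the only mouse receptor for Tnfsf10 (TRAIL) that carries a death domain, behaved differently. It had 1423 counts in untreated cells, 1155 in BLA and 1350 in BLU, and 2159 in BLA-A and 1288 in BLU-A. Its level was 53.4 CPM in untreated cells, 42.4 in BLA and 49.0 in BLU, and 93.1 in BLA-A and 48.6 in BLU-A. BLA-A stood alone above the other 4, which lay between 42.4 and 53.4 CPM. The log2 fold change against untreated cells was 0.80 in BLA-A (0.70 to 0.89), while it was -0.33 in BLA (-0.44 to -0.22), -0.12 in BLU (-0.23 to -0.02) and -0.13 in BLU-A (-0.24 to -0.03). Over the 5 libraries its log2 range of 1.13 was the largest of the 8 genes, a 2.20-fold difference between BLA-A and BLA.

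**Figure D1:**
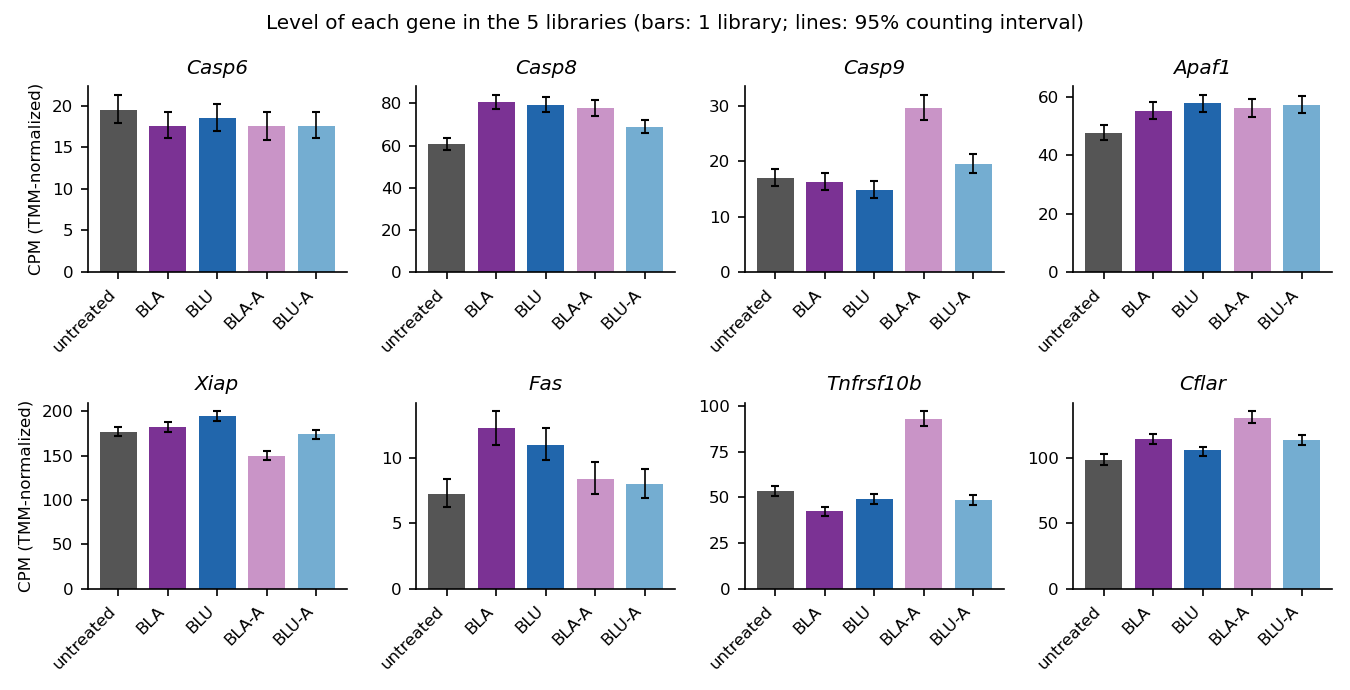
Levels of the 8 genes in the 5 libraries, as TMM-normalized CPM on a linear axis from 0 that differs between panels. Each bar is 1 library and each line its exact 95% counting interval. Tnfrsf10b (93.1 CPM) and Casp9 (29.7 CPM) are highest in BLA-A, and Fas is highest in BLA (12.3 CPM) and BLU (11.0 CPM).

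Downstream of the receptors, Casp8 and its inhibitor Cflar were both lowest in untreated cells. Casp8, the initiator caspase recruited to death receptors, had 1616 counts in untreated cells, 2194 in BLA and 2188 in BLU, and 1803 in BLA-A and 1825 in BLU-A. These correspond to 60.6, 80.5, 79.4, 77.8 and 68.9 CPM in the same order. BLA, BLU and BLA-A lay close together, with counting intervals of neighbouring levels that include 0, and BLU-A lay between them and untreated cells. The log2 fold change was 0.41 in BLA (0.31 to 0.50) and 0.39 in BLU (0.29 to 0.48), and 0.36 in BLA-A (0.26 to 0.45) and 0.18 in BLU-A (0.09 to 0.28).

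Cflar, which encodes c-FLIP, a caspase-8-like protein without protease activity, had 2634 counts in untreated cells, 3131 in BLA and 2909 in BLU, and 3040 in BLA-A and 3013 in BLU-A. Its level was 98.8 CPM in untreated cells, 115 in BLA and 106 in BLU, and 131 in BLA-A and 114 in BLU-A. BLA-A was the highest, and BLA and BLU-A did not differ beyond counting error. Its log2 fold change was 0.22 in BLA (0.14 to 0.29) and 0.09 in BLU (0.02 to 0.17), and 0.41 in BLA-A (0.33 to 0.48) and 0.20 in BLU-A (0.13 to 0.28). Cflar and Casp8 are neighbours on chromosome 1, at chr1:58750321-58798047 and chr1:58834375-58886665 on the plus strand (GENCODE M39, GRCm39).

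Of the apoptosome genes, Casp9 differed most. Casp9 had 453 counts in untreated cells, 445 in BLA and 409 in BLU, and 689 in BLA-A and 517 in BLU-A, which correspond to 17.0, 16.3, 14.8, 29.7 and 19.5 CPM in the same order. Both nanoparticle libraries were above the other 3, BLA-A by far the more. The log2 fold change against untreated cells was 0.79 in BLA-A (0.62 to 0.96) and 0.19 in BLU-A (0.01 to 0.37). It was -0.06 in BLA (-0.24 to 0.13) and -0.19 in BLU (-0.38 to 0.00), and the steps from BLU to BLA and from BLA to untreated cells were within counting error.

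Casp9 lies at chr4:141520923-141546508 on the plus strand. Its last 4244 bases overlap Cela2a, a pancreatic elastase gene on the opposite strand, which had 100 counts in untreated cells, 79 in BLA and 47 in BLU, and 114 in BLA-A and 75 in BLU-A. Reads were counted by strand, which separates such a pair as far as the strand setting holds, and the part of this overlap in the Casp9 values was not tested. Casp8 shares 3841 bases with Gm37760 and Fas shares 159 bases with Gm54659, both on the same strand, where the strand does not separate reads. Neither Gm37760 nor Gm54659 was in the count table, and the part of these overlaps in the values was not tested. Tnfrsf10b (chr14:70004916-70021860, plus strand), Xiap (chrX:41148481-41198541, plus strand) and Cflar overlap no other annotated gene.

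Apaf1, the scaffold that binds cytochrome c and Casp9, had 1271 counts in untreated cells, 1507 in BLA and 1592 in BLU, and 1302 in BLA-A and 1519 in BLU-A. Its level was 47.7 CPM in untreated cells and 55.3 CPM in BLA and 57.8 in BLU, and 56.2 in BLA-A and 57.3 in BLU-A. All 4 treated libraries lay within 55.3 to 57.8 CPM, and no 2 neighbours among them differed beyond counting error. The log2 fold changes of 0.21 (0.10 to 0.32), 0.27 (0.17 to 0.38), 0.23 (0.12 to 0.35) and 0.26 (0.16 to 0.37) all share the 1 untreated library as their reference. Apaf1 lies at chr10:90825173-90918686 on the minus strand.

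Xiap, an inhibitor of Casp9, had the highest counts of the 8 genes. They were 4710 in untreated cells, 4969 in BLA and 5362 in BLU, and 3471 in BLA-A and 4611 in BLU-A, or 177, 182, 195, 150 and 174 CPM. BLA-A was the lowest library and BLU the highest. The log2 fold change was -0.24 in BLA-A (-0.30 to -0.18) and 0.14 in BLU (0.08 to 0.19), against 0.05 in BLA (-0.01 to 0.10) and -0.02 in BLU-A (-0.08 to 0.04).

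Casp6, an effector caspase that cleaves nuclear lamins, was the steadiest gene. It had 520 counts in untreated cells, 480 in BLA and 510 in BLU, and 406 in BLA-A and 467 in BLU-A, or 19.5, 17.6, 18.5, 17.5 and 17.6 CPM. No 2 neighbours in this order differed beyond counting error, and the log2 range over the 5 libraries was 0.15. The log2 fold changes were -0.14 in BLA (-0.32 to 0.03) and -0.07 in BLU (-0.25 to 0.10), and -0.15 in BLA-A (-0.34 to 0.03) and -0.14 in BLU-A (-0.32 to 0.04), which leave room for decreases of up to 0.34 on the log2 scale. Casp6 lies at chr3:129695069-129707752 and shares 328 bases with Mcub on the opposite strand, which had 551 to 836 counts.

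**Figure D2:**
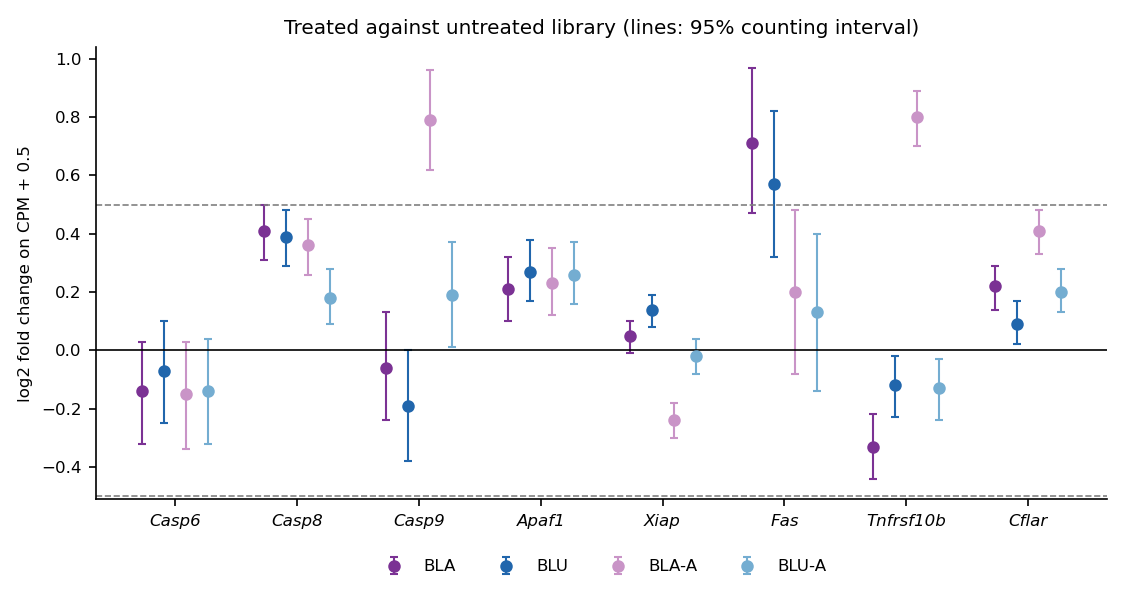
Log2 fold change of each gene in the 4 treatments against the untreated library, on TMM-normalized CPM plus 0.5. Points are 1 library against 1 library, lines are 95% counting intervals, and dashed lines mark 0.5 in size. Fas in BLA (0.71) and BLU (0.57) and Casp9 (0.79) and Tnfrsf10b (0.80) in BLA-A are past 0.5.

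The 8 genes were also set beside all tested genes. None of the 8 differed from untreated cells by over 1 on the log2 scale. Of all tested genes, those of low level included, 16.5% did in BLA and 10.3% in BLU, and 20.9% in BLA-A and 7.85% in BLU-A. Past 0.5 in size there was 1 gene of 8 in BLA and 1 in BLU (Fas in both), 2 in BLA-A (Casp9 and Tnfrsf10b) and 0 in BLU-A. The share of all tested genes past 0.5 was 42.6% in BLA and 32.9% in BLU, and 49.5% in BLA-A and 24.9% in BLU-A. A mean of at least 5 CPM was reached by 11507 genes, the 8 among them, and there the shares were 31.6%, 21.2%, 42.9% and 10.7%. As shares of 8, these counts are 12.5% with either extract, 25% with BLA-A and 0% with BLU-A, each below its background on either basis. However, 1 gene more or less moves a share of 8 by 12.5%, so no difference from the background is read from these counts.

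Taken without its sign, the median log2 fold change of the 8 genes was 0.21 in BLA and 0.16 in BLU, and 0.30 in BLA-A and 0.16 in BLU-A. Over the genes with at least 5 CPM it was 0.33, 0.26, 0.42 and 0.17. With the sign kept, the median of the 8 genes was 0.13, 0.12, 0.30 and 0.15, against -0.01, -0.01, -0.01 and 0.00 over all tested genes and -0.00, -0.01, 0.09 and 0.01 over those with at least 5 CPM. In BLA-A 6 of the 8 genes were above untreated cells and in the other treatments 5 of 8 were, all of them read against the same untreated library. With a median of -0.01 to 0.00, nearly equal numbers of all tested genes lay on either side of 0. No lean of the 8 genes is read from these counts.

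Levels in BLA-A depended most on the scaling. Scaling by total counts in place of TMM moved the median of all tested genes in BLA-A by -0.17 on the log2 scale, and by 0.03 or less in size in the other treatments. On that scale the BLA-A log2 fold changes were 0.61 for Tnfrsf10b, 0.60 for Casp9, 0.22 for Cflar, 0.17 for Casp8, 0.04 for Apaf1, 0.02 for Fas, -0.34 for Casp6 and -0.43 for Xiap. No gene changed sign, but Fas and Apaf1 in BLA-A came close to untreated cells.

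Gene length moved with the fold changes over the whole table, least in BLU-A, for the 16394 tested genes (92.9%) whose length could be taken from GENCODE M39. In BLA-A the median log2 fold change was 0.17 for 3610 genes of up to 10 kb and -0.21 for 2635 genes over 100 kb. In BLU the same medians were -0.16 and 0.20, in BLA -0.18 and 0.15, and in BLU-A -0.03 and 0.07. Casp6 (12.7 kb), Tnfrsf10b (16.9 kb) and Casp9 (25.6 kb) fall among the 5146 genes of 10 to 30 kb, whose medians were -0.11 in BLA and -0.09 in BLU, and -0.00 in BLA-A and -0.03 in BLU-A. Fas, Cflar, Xiap and Casp8, from 37.2 to 52.3 kb, fall among the 3221 genes of 30 to 60 kb, with medians of 0.02, 0.04, -0.04 and 0.01. Apaf1 (93.5 kb) falls among the 1782 genes of 60 to 100 kb, with medians of 0.13, 0.12, -0.06 and 0.04. The part of gene length in the members' values was not tested.

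Ratios of counts within a library do not depend on the scaling between libraries. They compare genes of different length, so only their change from library to library is read here. The shifts by gene length given above differ between libraries and can enter that change, and their part was not tested. Cflar had 1.63 counts for each Casp8 count in untreated cells (1.53 to 1.74), 1.43 in BLA (1.35 to 1.51) and 1.33 in BLU (1.26 to 1.41), and 1.69 in BLA-A (1.59 to 1.79) and 1.65 in BLU-A (1.56 to 1.75). Both extract libraries were below the untreated one and both nanoparticle libraries were within its interval.

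Xiap had 10.4 counts for each Casp9 count in untreated cells (9.44 to 11.5), 11.2 in BLA (10.1 to 12.3) and 13.1 in BLU (11.9 to 14.5). The ratio was 8.92 in BLU-A (8.14 to 9.79) and 5.04 in BLA-A (4.64 to 5.47), the lowest of the 5 libraries. The ratio of Tnfrsf10b to Fas was 7.34 in untreated cells (6.31 to 8.57), 3.46 in BLA (3.06 to 3.92) and 4.44 in BLU (3.92 to 5.05), and 11.1 in BLA-A (9.56 to 12.9) and 6.08 in BLU-A (5.25 to 7.06). Here the extracts lay below untreated cells, BLA-A lay above, and the interval of BLU-A overlapped that of untreated cells.

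**Figure D3:**
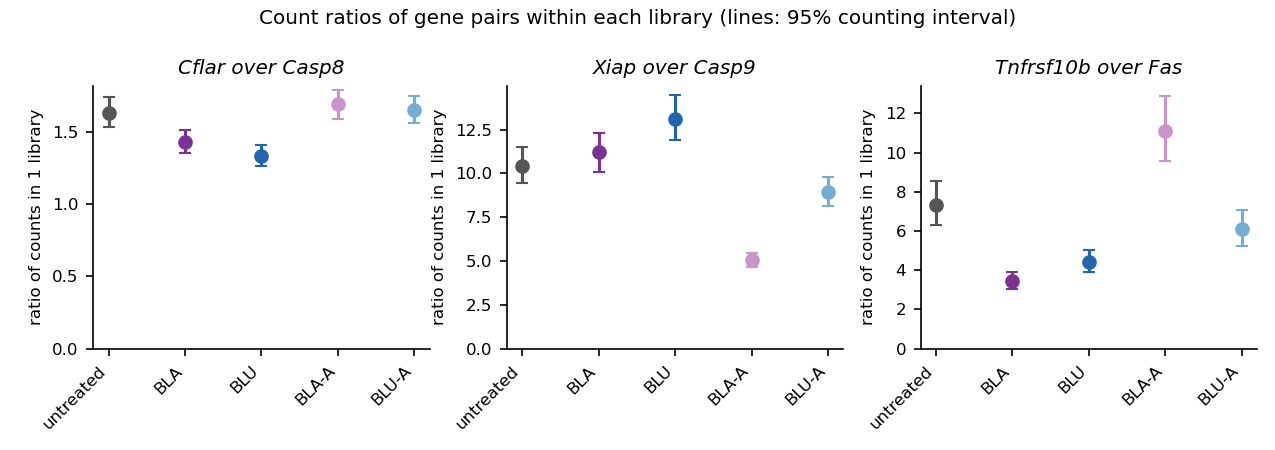
Ratios of counts of 3 gene pairs within each library, with exact 95% counting intervals, on linear axes from 0. Xiap over Casp9 is lowest in BLA-A (5.04), Tnfrsf10b over Fas is lowest in BLA (3.46) and highest in BLA-A (11.1), and Cflar over Casp8 is lowest in BLU (1.33).

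The nanoparticles were compared with the extract of the same berry. For blackberry, BLA-A was above BLA for Tnfrsf10b, with a log2 difference of 1.13 (1.02 to 1.23), and for Casp9, with 0.84 (0.67 to 1.02). It was below BLA for Fas, at -0.52 (-0.76 to -0.27), and for Xiap, at -0.28 (-0.35 to -0.22). These made 3 of 8 genes past 0.5 in size, against 53.9% of all tested genes and 49.7% of those with at least 5 CPM. Casp6, Casp8 and Apaf1 differed by -0.01 (-0.20 to 0.18), -0.05 (-0.14 to 0.04) and 0.02 (-0.09 to 0.13), and Cflar by 0.19 (0.12 to 0.26).

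For blueberry, BLU-A was below BLU for Fas, at -0.44 (-0.68 to -0.20), and above BLU for Casp9, at 0.38 (0.20 to 0.57). Tnfrsf10b differed by -0.01 (-0.12 to 0.10). No gene of the 8 passed 0.5 in size, where 22.7% of tested genes and 9.10% of those with at least 5 CPM did. Casp8 differed by -0.20 (-0.29 to -0.11) and Xiap by -0.16 (-0.22 to -0.10), while Cflar differed by 0.11 (0.03 to 0.18), Apaf1 by -0.01 (-0.11 to 0.09) and Casp6 by -0.07 (-0.25 to 0.11). In both berries the intervals of Fas and Xiap lay below 0 and those of Casp9 and Cflar above it. These intervals cover counting error only. The share of all tested genes with the same direction in both berries was not computed, so no shared pattern is read from them. Scaling by total counts, an alternative added after the values were seen, moved the median of all tested genes from -0.08 to -0.22 for BLA-A against BLA. On that scale Cflar was at 0.03, Casp8 at -0.21, Casp6 at -0.16 and Apaf1 at -0.14, while Tnfrsf10b stayed at 0.97, Casp9 at 0.69, Fas at -0.67 and Xiap at -0.44. With DESeq2 size factors Casp8 (0.03), Casp6 (0.07) and Apaf1 (0.10) were above 0, so the sign of these 3 genes for blackberry depends on the scaling. Tnfrsf10b was at 1.13 for blackberry and -0.01 for blueberry, and this contrast between the berries has no replicates to test it with.

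Between the berries, BLA minus BLU gave log2 differences in these genes from -0.21 (Tnfrsf10b, -0.32 to -0.09) to 0.15 (Fas, -0.07 to 0.37). Their median size was 0.11, against 0.19 over the genes with at least 5 CPM. The counting interval left out 0 for 3 genes, Tnfrsf10b, Xiap at -0.09 (-0.15 to -0.04) and Cflar at 0.12 (0.05 to 0.20). Between the nanoparticles, BLA-A was above BLU-A by 0.93 for Tnfrsf10b (0.83 to 1.03) and by 0.60 for Casp9 (0.43 to 0.76), and below it by -0.22 for Xiap (-0.28 to -0.15). It was also above BLU-A by 0.21 for Cflar (0.13 to 0.28) and by 0.17 for Casp8 (0.08 to 0.27). The median size was 0.19, against 0.43 over the genes with at least 5 CPM. The scaling, on which levels in BLA-A depended most, enters these differences too, and its part was not tested. Fas differed by 0.07 (-0.20 to 0.34). The extracts and nanoparticles were given at 1 shared concentration.

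A test across conditions was possible only with the treatments standing in for replicates. With the 4 treated libraries against the untreated one (quasi-likelihood test in edgeR, Benjamini-Hochberg adjusted, 3 residual degrees of freedom), 4 genes of 17647, or 0.0227%, had an adjusted p under 0.05, and none of the 8 did. At an unadjusted p under 0.05 there were 481 genes, or 2.73%, and again none of the 8. The lowest p among them was 0.211 for Casp8, whose log2 fold change was 0.34 ± 0.25 (SE) with an adjusted p of 0.999, and which was higher in 4 of 4 treated libraries. Since these share the untreated library, such a run of signs is common, and 19.4% of tested genes were higher in 4 of 4 and 19.3% lower. Of the 8, 4 were higher in 4 of 4 and 1, Casp6, lower. Fas had a log2 fold change of 0.45 ± 0.42 (SE), Apaf1 of 0.25 ± 0.24 and Cflar of 0.24 ± 0.25, all with an adjusted p of 0.999 in the same edgeR test.

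With both nanoparticle libraries against both extract libraries (2 residual degrees of freedom), 0 genes had an adjusted p under 0.05 in edgeR, which is 0% of those tested, and 36 did in DESeq2, none of them among the 8. At an unadjusted p under 0.05 there were 1058 genes, or 6.0%, and none of the 8. Casp9 had a log2 difference of 0.66 ± 0.32 (SE) and an adjusted p of 0.702 in the edgeR fit. Tnfrsf10b had 0.63 ± 0.34 with an adjusted p of 0.702, and Fas had -0.51 ± 0.34 with an adjusted p of 0.713, in the same edgeR fit. In simulated data with a coefficient of variation of 0.45, beside the 0.452 estimated for the first of these tests and the 0.419 for the second, 9.5% and 5.0% of genes changed 4-fold were recovered. At 0.2 the shares were 88.0% and 92.0%.

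Levels between genes were compared per kilobase of merged exons (GENCODE M39). In untreated cells the order was Casp8 at 19.7 CPM per kb, Xiap at 17.9, Tnfrsf10b at 9.37, Cflar at 6.84, Apaf1 at 4.50, Casp6 at 3.49, Fas at 3.14 and Casp9 at 2.07. In BLA-A Tnfrsf10b, at 16.3 CPM per kb, passed Xiap at 15.2 and took the second place. The counting took in introns, and per kilobase of the whole gene the order in untreated cells was Xiap (3.53), Tnfrsf10b (3.15), Cflar (2.07), Casp6 (1.54), Casp8 (1.16), Casp9 (0.664), Apaf1 (0.510) and Fas (0.196). Casp8 is in place 1 by exons and in place 5 by whole gene, so the order depends on the length used.

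The genes most like Tnfrsf10b and Casp9, the members with the largest range, were sought among 9758 genes with a mean of at least 10 CPM, by the distance between centred log2 profiles over the 5 libraries. For Tnfrsf10b they were Usb1, Sumo3 and Tecr, at distances of 0.0694, 0.0764 and 0.0784. Usb1, for example, was at 15.7 CPM in untreated cells, 11.8 in BLA and 13.8 in BLU, and 27.5 in BLA-A and 14.3 in BLU-A. For Casp9 they were Elmo2, Manbal and Preb, at distances of 0.0456, 0.0486 and 0.0921. Elmo2 was at 51.0 CPM in untreated cells, 51.1 in BLA and 46.0 in BLU, and 91.8 in BLA-A and 59.7 in BLU-A. Over 5 libraries such closeness is a description, and these genes share the library that stands apart.

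A list of 63 other genes of the pathway, grouped by role, was all found in the table, and 53 of them were tested. None was called by the edgeR quasi-likelihood test of the 4 treated libraries against the untreated one. Past a log2 fold change of 1 there were 2 higher and 2 lower in BLA, 6 higher and 0 lower in BLU, 2 higher and 1 lower in BLA-A, and 2 higher and 0 lower in BLU-A. Of all tested genes, 7.92% were higher and 8.54% lower with BLA, and 5.66% higher and 4.64% lower with BLU. For BLA-A the shares were 8.54% higher and 12.4% lower, and for BLU-A 3.35% higher and 4.50% lower. The list's total shares were 7.55%, 11.3%, 5.66% and 3.77%, against 16.5%, 10.3%, 20.9% and 7.85% of all tested genes, those of low level included. With so few of the 53 genes past 1 and no background matched for level, no difference is read from these shares. The median log2 fold change of the list was -0.06, -0.04, -0.01 and 0.05 in the 4 treatments, near that of all tested genes.

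Among the other caspases, Casp1, the inflammatory caspase that matures interleukin-1β, was at 1.5 CPM in untreated cells and had log2 fold changes of 1.19 in BLU and 1.27 in BLU-A, on 40 counts in untreated cells against 112 and 115.

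The other death receptors and decoys differed most in BLA-A, where 5 of the 8 tested were over 0.5, against 23.4% of all tested genes over 0.5 in that direction, and the median was 0.80. Tnfrsf1a, the main TNF receptor, was at 31.1 CPM in untreated cells, 19.8 in BLA and 30.3 in BLU, and 68.5 in BLA-A and 26.8 in BLU-A, a log2 fold change of 1.12 in BLA-A. The other 4 were Tnfrsf23 (0.91), Tnfrsf1b (0.87), Tnfrsf26 (0.81) and Tnfrsf22 (0.79), of which Tnfrsf22, Tnfrsf23 and Tnfrsf1b were named after their values were seen. Tnfrsf22, Tnfrsf23 and Tnfrsf26 are adjacent on chromosome 7 and Tnfrsf22 and Tnfrsf23 encode decoy receptors for Tnfsf10. In BLA, Tnfrsf21 (death receptor 6) was at 5.95 CPM against 13.2 in untreated cells, a log2 fold change of -1.09. In BLU, Tnfrsf26 had a log2 fold change of 1.48, on 97 counts against 25.

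The ligands had low counts in every library. Fasl had 0 to 7 counts, Tnf 0 to 8 and Lta 0 to 15, and Tnfsf12 was at 0 in all 5. Tnfsf12 and Lta each overlap 1 other gene on the same strand, where the strand does not separate reads. The part of this overlap in their counts was not tested. Tnfsf10 had 11 to 44 counts, with 18 (0.675 CPM) in untreated cells and 44 (1.66 CPM) in BLU-A. Tnfsf15, another ligand of the family, had 14 to 39 counts, with 39 in untreated cells and 14 in BLA (-0.95). All of the 6 ligands are given here for completeness, whatever their change. A count of 0 allows up to 3 counts.

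Among adaptors and kinases, Fadd, which joins Fas and Tnfrsf10b to Casp8, was at 9.34 CPM in untreated cells, 6.98 in BLA and 8.96 in BLU, and 14.0 in BLA-A and 11.0 in BLU-A, with log2 fold changes of -0.40, -0.06, 0.56 and 0.23. Ripk1, the kinase of the TNF receptor complex, had 0.30, 0.29, 0.31 and 0.41, and Ripk3, its partner in necroptosis, was at 0 counts in all 5 libraries. Cradd, an adaptor of Casp2, had 1.2 in BLA and 1.01 in BLU, and 0.46 in BLA-A and 1.07 in BLU-A. Its edgeR p of 0.0436 was lost on adjustment (adjusted p = 0.999), and its gene of 171 kb overlaps 7 others. Pidd1, which forms a complex with Cradd and Casp2, had -1.19 in BLA.

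Of the proteins released from mitochondria, Diablo, which counters Xiap, had log2 fold changes of 0.14, -0.06, -0.14 and 0.21. Cycs, cytochrome c, had 7 counts in untreated cells and 16 to 51 in the treated libraries, with 1.23 in BLA and 1.82 in BLA-A. Its counts are low for a gene that respiring cells express at a high level, and since it has many processed copies in the mouse genome its values are uncertain. Among the inhibitors, Birc2 (cIAP1) was at 19.3, 21.4, 27.5, 13.2 and 21.8 CPM, with 0.50 in BLU and -0.53 in BLA-A. Naip1 had -1.32 in BLA-A on 7 counts against 40, and Naip5 and Naip6 had 1.06 and 1.09 in BLU on 28 and 53 counts against 6 and 17. These Naip genes are closely related copies in 1 cluster on chromosome 13, so reads could be split between them. Of the effector targets, Dffb, the nuclease that cuts DNA in apoptosis, had 1.09 in BLU, on 104 counts against 40, and was the only one past 1.

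**Figure D4:**
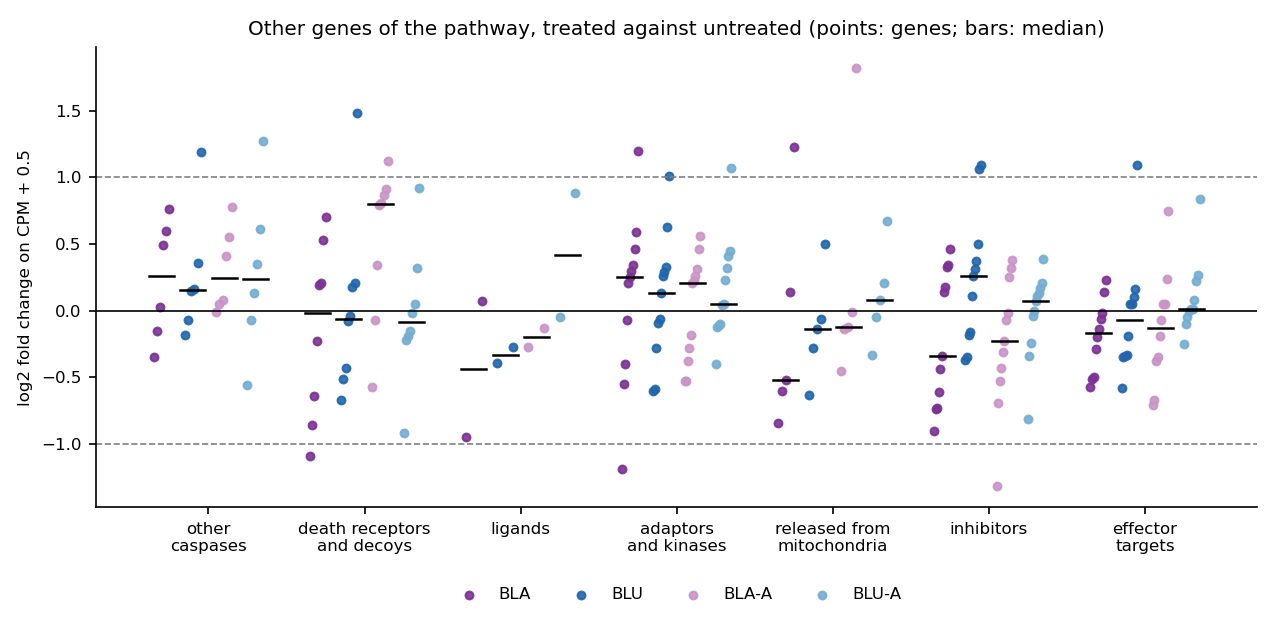
Log2 fold change of the 53 tested genes of the pathway list in each treatment against the untreated library, by role. Points are genes, black bars are medians, and dashed lines mark 1 in size. The death receptors and decoys have a median of 0.80 in BLA-A, and the highest point is Cycs in BLA-A (1.82).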

How the data were processed

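Bulk RNA-seq of 4T1 cells covered 5 conditions in 15 columns, 3 per condition. The table the authors deposited holds raw read counts of 40402 genes. They removed ribosomal RNA, aligned reads to GRCm39 with STAR, each read file on its own, and counted reads in OmicsBox over the whole span of each gene, taking in introns and keeping to the strand. The submitters' processing notes name DESeq2 1.36.0. The authors' tables of fold changes with p-values and of enriched gene sets were not used. The labels give each of the 15 samples its own batch date, so batch and condition cannot be told apart.

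The 3 columns of each condition had a chi-square per degree of freedom of 0.0951 to 0.475 (over genes averaging 10 counts or more), under the limit of 1.5, and were averaged to whole counts as 1 library. Genes reaching 1 CPM before normalization in any library were tested. Counts were TMM-normalized in edgeR 4.0.16 (R 4.3.3), and log2 ratios were formed on CPM plus 0.5, with exact conditional 95% counting intervals that hold the normalization and the reference level fixed. The edgeR quasi-likelihood tests were run over all tested genes with Benjamini-Hochberg adjustment at 0.05, with DESeq2 1.42.0 as an alternative. Their p-values measure the spread between treatments, not between replicates. Each SE was derived from the test, as the size of the log2 fold change divided by the square root of the quasi-likelihood F statistic. The tests were tested on simulated data, where at a coefficient of variation of 0.45 the test of treated against untreated recovered 9.5% of genes changed 4-fold and 85.0% of those changed 16-fold. Gene positions and lengths came from GENCODE M39, and promoter windows from RefSeq. Python 3.11.15, numpy 2.4.6, pandas 2.3.3, scipy 1.17.1 and matplotlib 3.10.9 were used.

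The members and lists were chosen with earlier results of these data known. All 8 members are named. Of 63 pathway genes, those over 1 in absolute log2 fold change with at least 1 CPM in untreated cells or in that treatment are named, at most 5 per role, besides Fadd, Ripk1, Cycs, Diablo and Birc2 and some genes that are not reported here. Ripk3, the 6 ligands, Tnfrsf1b, Tnfrsf22 and Tnfrsf23 are outside this rule and were named after their values were seen. The 3 genes most like each of the 2 members of largest range are named too. The medians by gene length were added after the values were seen. Protein sequences were not analysed here. Total counts of 25613778 to 26956442 per library put 3 counts at 0.111 to 0.117 CPM.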

Additional observations from a re-analysis of the deposited data

Results flagged for a closer look

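Among the 4 treated libraries, the Casp6 level of the BLU library (18.5 CPM) lay apart from the other 3, which were at 17.5 to 17.6 CPM, with a gap of 0.889 of the range of the 4 values, above Dixon's 95% limit for 4 samples. Chance alone gives such a gap in about 1 of 20 groups. The difference from BLA was 0.07 on the log2 scale and its counting interval included 0 (-0.11 to 0.25).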

How the results depend on the processing

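The 32 log2 fold changes of the 8 genes in the 4 treatments kept their sign under every alternative scaling, pseudocount and choice of columns. Scaling by total counts moved 7 of them beyond the counting error, all in BLA-A, and DESeq2 size factors moved 0. With a pseudocount of 2 CPM, 0 genes of the 8 were past 0.5 in BLU, since Fas was then at 0.49. Leaving out column 1, 2 or 3 of every condition gave 1 gene past 0.5 with either extract, 2 with BLA-A and 0 with BLU-A, and 4 genes called. This is no sign of stability, since the columns vary less than separate draws of reads would. In the test of treated against untreated libraries the number of genes called was 17 in DESeq2, 2 with a filter of 10 counts in every library, and 3 to 45 with a treated library left out, 45 without BLA-A, with 0 of the 8 genes called each time. With nanoparticles against extracts DESeq2 called 36 genes, and edgeR without a filter 554, again with 0 of the 8. The 15 columns entered as separate samples gave 3628 of 18007 tested genes and 3 of the 8 (Apaf1, Casp8 and Cflar). With the replicate number as a block they gave 2544 of 18007 genes and 2 of the 8 (Casp8 and Apaf1). No difference of the 8 from all tested genes is read from these counts. Those columns are taken here as read subsets of 5 libraries, and on that reading these fits count the same reads as replicates. The numbers did not pair the columns: deviations of same-numbered columns had correlations of -0.0199 to 0.0146 over 30 pairs. By whole gene length in place of exons, all 8 places in the order of levels in untreated cells changed. No condition has a second library, and Fas, with 194 counts in untreated cells, had the lowest count of the 8 genes.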
